A study of Mus musculus with 12 samples.

Results

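Interferon-stimulated genes are the genes that cells switch on when an interferon binds its receptor. Here 43 of them were followed in resting naive CD4 T cells, out of 10073 genes listed in the deposited expression table. The members were given as a list of symbols known to respond to type I or type II interferon. All 43 had a row, and all 43 were among the 10021 genes tested, those with a mean of at least 0.5 RPKM (reads per kilobase of transcript, scaled to the mapped reads of the library). The libraries came from spleen and lymph node cells of untreated mice that had received no T cell receptor stimulus after isolation. Every mouse carried the Tg(Nr4a1-EGFP)GY139Gsat transgene, in which regulatory sequence of Nr4a1 (the gene of Nur77) drives green fluorescent protein (GFP), together with the Foxp3tm1Flv allele, which marks regulatory T cells with red fluorescent protein, on a C57/BL6 background. The labels give no age.

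All 4 sorted populations were CD4+, negative for the Foxp3 reporter and low for CD44, and they differed in reporter brightness and in the surface protein Ly6C. The Ly6C+ populations were A, which was Nur77-GFP low, and B, which was GFP intermediate. The Ly6C negative populations were C, which was GFP intermediate, and D, which was GFP high. Each population was sorted from 3 mice, so that 12 bulk libraries were made, named below by population and mouse number. The reporter reads recent T cell receptor signalling, so the comparison of B with A and of D with C each follow 1 step of reporter brightness within 1 Ly6C gate. D against A spans both ends of the sort, and C against B changes the Ly6C gate at intermediate GFP.

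Type I interferons signal through IFNAR1 and IFNAR2 to a complex that holds STAT2 and IRF9 and binds the interferon-stimulated response element. Interferon gamma signals through IFNGR1 and IFNGR2, and its direct targets carry the gamma-activated site. Many targets answer to both, while the guanylate-binding proteins and the immunity-related GTPases are known above all for their response to interferon gamma, and the Ifit, Oas, Mx and Rsad2 genes for their response to type I interferon. In unstimulated T cells the baseline level of these genes is known to depend on tonic interferon signalling.

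Promoter sequence was examined first, to see which kinds of element lie near the start of the members. Windows of 300 bases, from 250 before to 50 after the annotated start, were taken from RefSeq on GRCm38.p6 and were matched by symbol for 33 of the 43 members. No window was matched for Gbp11, Iigp1, Usp18, Mx1, Rtp4, Dhx58, Zbp1, Parp9, Parp14 and Ifi27l2a. The response-element motif, 2 copies of GAAA separated by any 2 bases and searched on both strands with overlaps allowed, was present in 18 of the 33 members and in 3.99% of all genes with a window. By role it was found in 6 of 7 GTPases, 7 of 11 antiviral effectors and 3 of 3 sensors, against 1 of 5 transcription factors, 0 of 2 PARP-family members and 1 of 5 of the remaining members. The gamma-activated site motif TTCNNNGAA, searched in the same way, was present in 8 of the 33 members and in 9.55% of all genes. Its matches fell in 3 of 7 GTPases, in 3 of 11 antiviral effectors, in Irf1 among the transcription factors and in 1 of the remaining members. These are matches of letters, and no factor binding was measured in these libraries.

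The stretches below carry these motifs in members whose values are described later, and all lie upstream of the annotated start. They are written 5′ to 3′ on the strand of the gene, with the matches to either motif in capitals. The first group holds GTPases and Ifi203, from chr3:142620592-142620625 (plus strand, Gbp2), chr3:142530218-142530304 (plus, Gbp7), chr11:58199499-58199543 (plus, Igtp), chr11:58214890-58214934 (plus, Irgm2), chr11:48871423-48871462 (minus, Irgm1) and chr1:173942506-173942539 (minus, Ifi203, 1 of its 2 windows).
Gbp2: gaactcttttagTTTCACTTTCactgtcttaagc
Gbp7: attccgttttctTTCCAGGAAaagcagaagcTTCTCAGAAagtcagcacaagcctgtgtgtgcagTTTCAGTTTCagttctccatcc
Igtp: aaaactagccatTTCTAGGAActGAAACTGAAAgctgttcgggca
Irgm2: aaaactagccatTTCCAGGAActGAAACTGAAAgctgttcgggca
Irgm1: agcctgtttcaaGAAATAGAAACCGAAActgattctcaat
Ifi203: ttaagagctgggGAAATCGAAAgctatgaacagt

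Igtp and Irgm2 lie close together on chromosome 11, and their windows were identical at 44 of 45 bases. The one difference, T16C counted from 1 at the 5′ end of the window with the Igtp base first, lies inside the gamma-activated site match and outside its fixed letters, so both windows hold 1 match to each motif. The second group holds antiviral effectors with response-element matches, from chr4:156200863-156200908 (minus, Isg15), chr19:34640773-34640825 (plus, Ifit1), chr19:34583361-34583428 (plus, Ifit3) and chr12:26456551-26456584 (minus, Rsad2).
Isg15: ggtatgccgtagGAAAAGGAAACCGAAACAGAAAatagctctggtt
Ifit1: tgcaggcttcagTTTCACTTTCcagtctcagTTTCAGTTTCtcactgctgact
Ifit3: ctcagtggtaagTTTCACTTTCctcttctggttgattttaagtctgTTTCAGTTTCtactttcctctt
Rsad2: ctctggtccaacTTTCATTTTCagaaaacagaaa

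Several facts about the libraries touch the values below. Depth, recovered from the whole-read steps of the RPKM values, ran from about 6310000 reads in A3 to 9070000 reads in C1. Nr4a1 transcripts were low in A2 and A3 (26.1 and 22.9 RPKM), and higher in B2 and B3 (73.3 and 64.6 RPKM) and in D (58.7 to 67.8 RPKM), with B2 above every D library although D was sorted as the brighter gate. The library labelled A1 held 57.7 RPKM of Nr4a1 and the library labelled B1 held 36.0 RPKM, which is the reverse of their gates, so counts are also given without these 2 libraries. An exchange of the labels A1 and B1 was not tested, and it would turn the sign of every B against A difference given for mouse 1. The C libraries, sorted as GFP intermediate, held only 23.4 to 28.3 RPKM. Ly6c1, a gene of the Ly6C protein, held 58.1 to 72.6 RPKM in A and 59.3 to 67.0 RPKM in C, against 37.1 to 50.2 RPKM in B and 38.2 to 48.4 RPKM in D, so its transcripts in B and C went against the Ly6C gates. A, B, C and D therefore stand for the libraries as labelled, and every direction between them rests on those labels. An exchange of the labels B and C was not tested either. It would turn the sign of every C against B difference, and B against A and D against C would then cross the Ly6C gate. CD4 T cell markers summed to 1373 to 1501 RPKM over 5 listed genes in all 12 libraries. C3 held 709 RPKM of the plasma cell gene Jchain and 209 RPKM of Cd74, with a B cell marker sum of 247 RPKM against 6.7 to 28.2 RPKM in the other 11 libraries. The haemoglobin transcripts Hbb-bs and Hba-a2 together reached 8.1 to 22.4 RPKM in A1, B1, C2 and D2, and 133 to 176 RPKM in the other 8 libraries.

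The members were expressed over a wide range, from a mean of 2.85 RPKM for Rsad2 to 762 RPKM for Shisa5. Their median was 29.4 RPKM, against 12.8 RPKM for all genes tested, and 33 of the 43 lay above that general median. Only Shisa5, Sp100, Slfn2, Slfn1 and Irf1 passed 100 RPKM. A further 10 members lay between 50 and 100 RPKM, 24 lay between 5 and 50 RPKM, and Gbp3, Gbp11, Mx1 and Rsad2 were under 5 RPKM. Rsad2 and Mx1, both canonical type I targets, were the faintest and rested on few reads: Mx1 had as few as 40 reads in a library, whereas Shisa5 had up to 17165. In bulk RNA, fewer cells expressing a gene and less RNA per cell cannot be told apart.

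**Figure D1:**
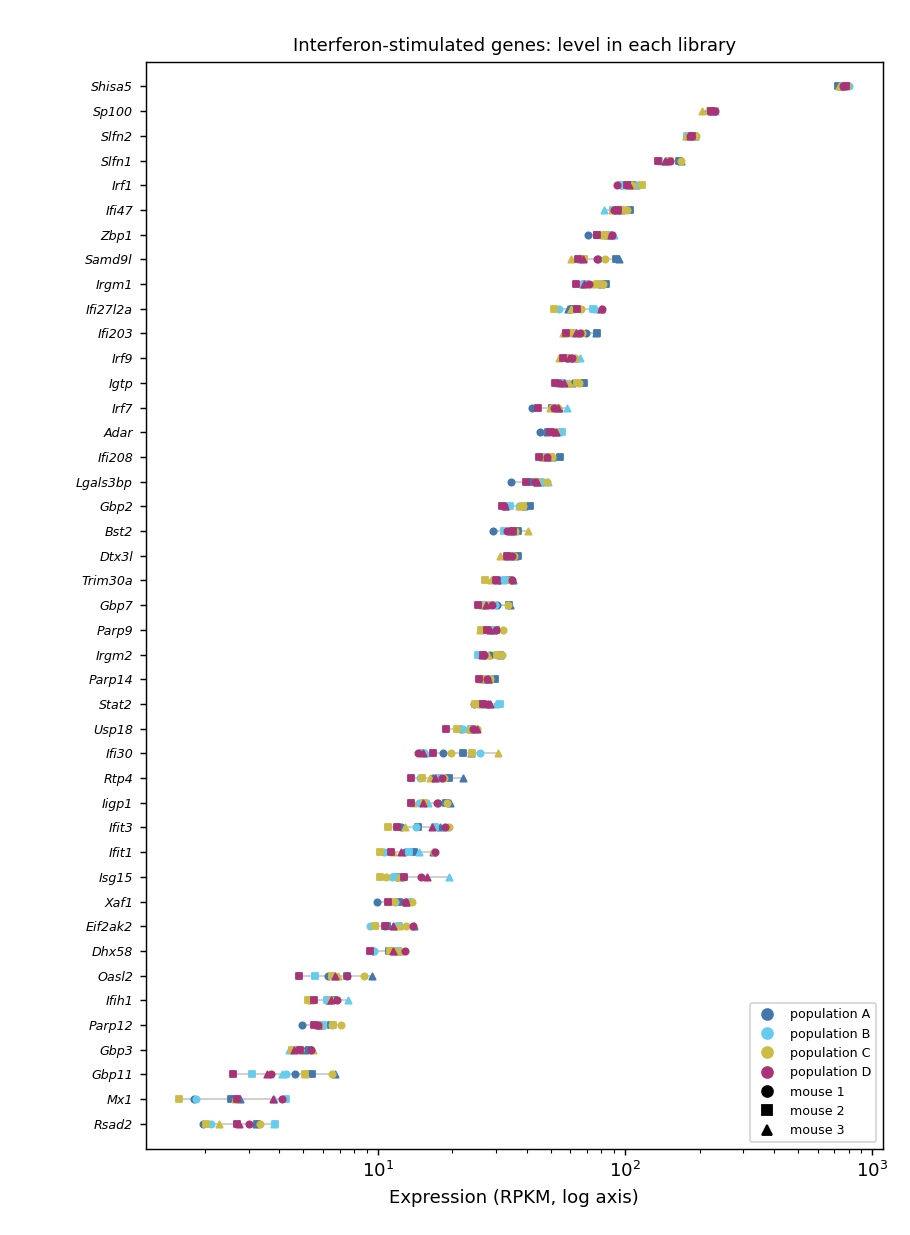
Expression of each of the 43 members in each of the 12 libraries, in RPKM on a log axis, with colour for population and symbol for mouse number; the grey line joins the lowest and highest library. Means run from 2.85 RPKM (Rsad2) to 762 RPKM (Shisa5), and the 4 populations overlap for most members.

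The most abundant members of the role groups differed in how far they varied across the libraries. Shisa5, an interferon-inducible protein of the endoplasmic reticulum, ranged from 725 RPKM in A2 to 805 RPKM in B1. Sp100, a component of nuclear bodies, averaged 223 RPKM, with C3 lowest at 205 RPKM and B3 highest at 230 RPKM. Among the GTPases the most abundant was Ifi47, which averaged 93.7 RPKM, among the antiviral effectors Samd9l, with 60.5 to 94.2 RPKM, among the sensors Zbp1, which binds Z-form nucleic acid, and among the PARP group Dtx3l, a ubiquitin ligase that partners PARP9, with 31.2 to 36.8 RPKM. Over all members the highest library exceeded the lowest by a median of 1.36 times, against 1.33 times over all genes tested. Slfn2 varied least, by 1.10 times, and Mx1 most, by 2.71 times. Only Gbp11, Mx1 and Ifi30 varied by more than 2 times, and 31 of the 43 members stayed under 1.5 times. Within populations the median standard deviation was 0.12 on the log2 scale for the members and 0.11 for all genes tested.

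**Figure D2:**
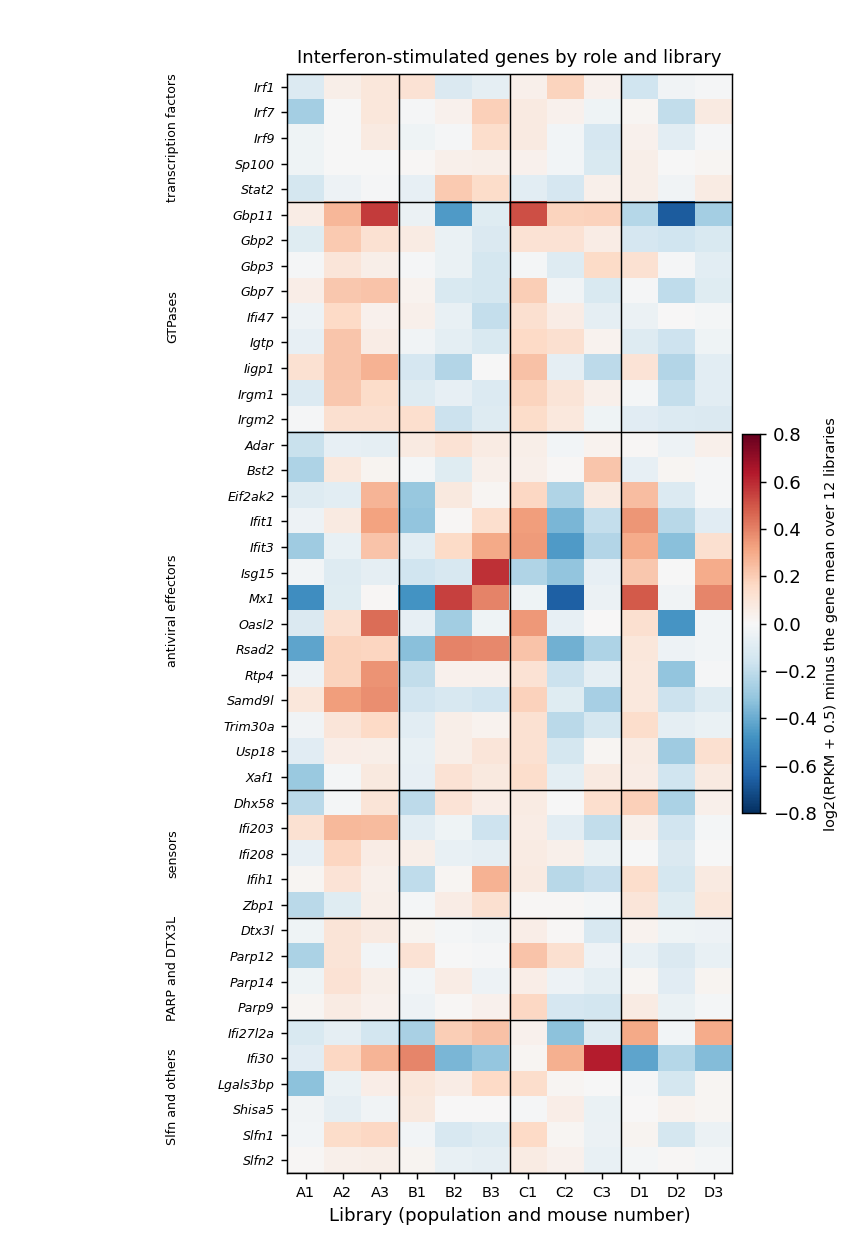
Difference of each member from its own mean over the 12 libraries, on the log2(RPKM + 0.5) scale, with members in rows grouped by role and libraries in columns ordered by population and mouse number. The GTPase rows are mostly red in A2, A3 and C1, and the Ifit, Mx1 and Rsad2 rows are blue in A1, B1, C2 and D2 with few exceptions.

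Differences between populations were small, and 1 member passed the test across all genes. Each comparison was tested with limma on log2(RPKM + 0.5) over the 12 libraries, and a member was called where the p adjusted by Benjamini-Hochberg over 10021 genes was under 0.05. In B against A, 1 of 43 members was called, and it was lower in B, beside 2.23% of all genes called in either direction and 1.66% called lower. No member was called in D against C, D against A or C against B, and in each of these 0.00998% of all genes, which is 1 gene, was called. With an unadjusted p under 0.05 the members counted 3 higher and 8 lower in B against A (23.1% of all genes in either direction), 2 and 6 in D against C (18.1%), 2 and 11 in D against A (19.0%), and 3 and 0 in C against B (13.4%). The median change over the members was -0.04, -0.02, -0.04 and 0.0035 on the log2 scale in these comparisons, in that order, against 0.01, 0.01, 0.01 and -0.0046 over all genes tested. Leaving out 1 library at a time moved the member medians over -0.08 to -0.02, -0.08 to 0.02, -0.10 to -0.01 and -0.04 to 0.04. Mouse by mouse, the member median of D against A was 0.12, -0.21 and -0.08. The F test over the 4 populations called 0 members (0.00998% of all genes), and so did the test of whether the D against C step differs from the B against A step (0% of all genes). At an unadjusted p under 0.05, that last test passed 15.0% of all genes.

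**Figure D3:**
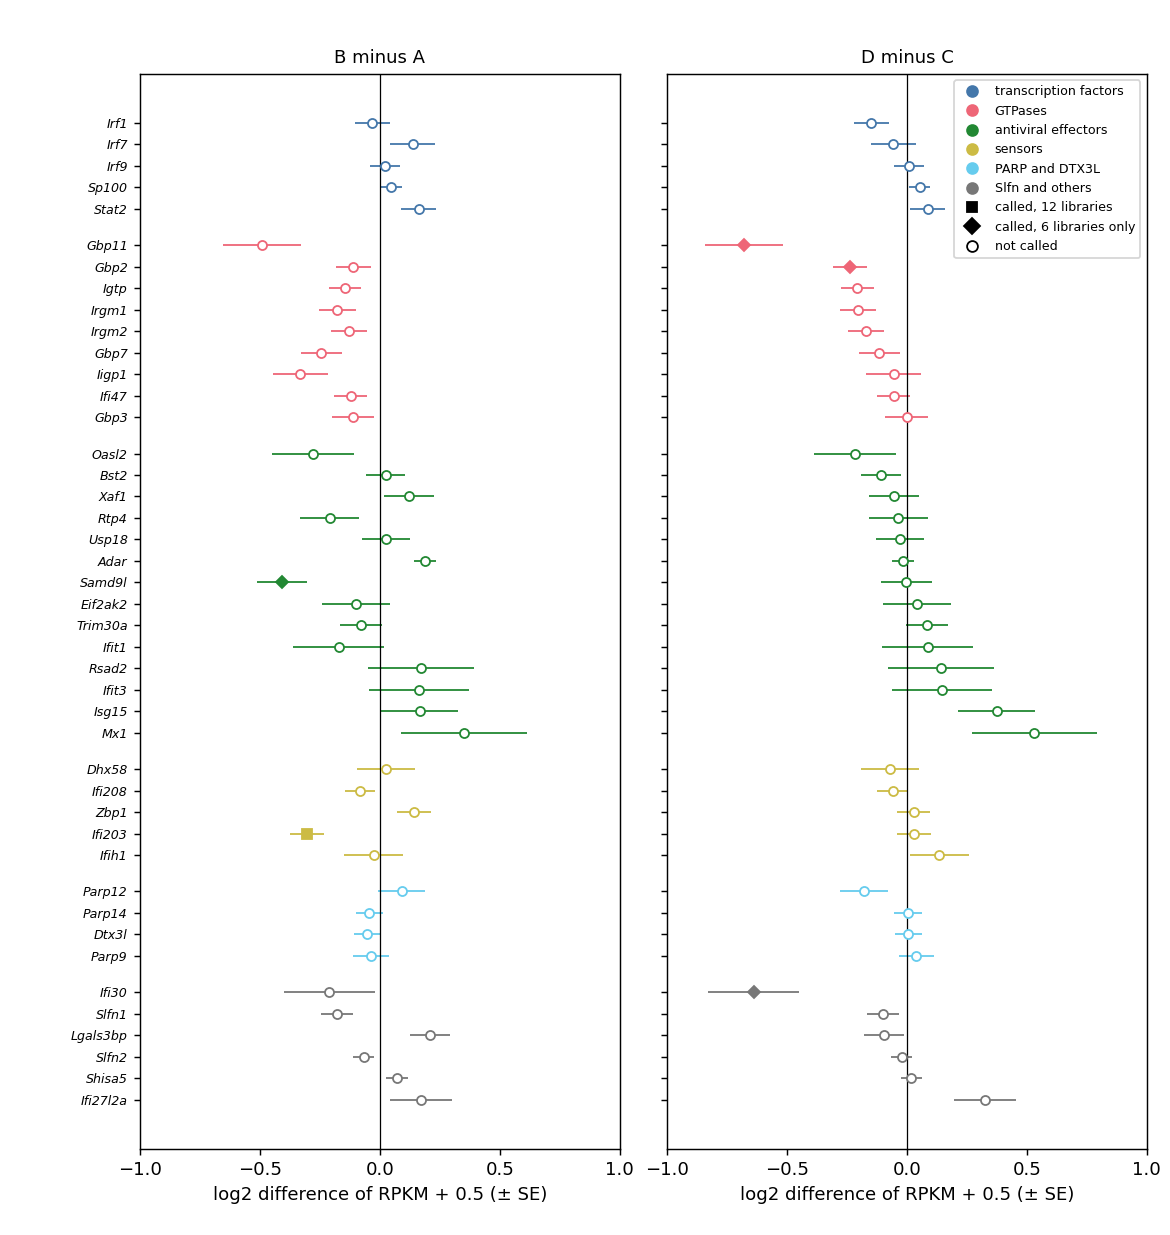
Fitted log2 difference of RPKM + 0.5 with its standard error for each member in B against A (left) and D against C (right), coloured by role. Filled squares mark members called with all 12 libraries and filled diamonds those called only when the 6 libraries compared were fitted alone; Ifi203 is the one square, and all 9 GTPases lie at or below 0 in both panels, by values that for Gbp3 and Iigp1 in D against C turn sign when single libraries are left out.

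The called member was Ifi203, which encodes a nuclear protein of the PYHIN family, whose members bind DNA. It held 69.6, 76.6 and 76.2 RPKM in A1, A2 and A3, and 60.3, 62.3 and 56.9 RPKM in B1, B2 and B3. The libraries labelled A all lay above those labelled B, and A1 was the lowest of the A libraries. Ifi203 was lower in B by 0.31 ± 0.07 on the log2 scale (SE; limma adjusted p = 0.0481 with 12 libraries, 0.0314 with 6). It was lower in B in 3 of 3 mice, by differences of -0.20, -0.30 and -0.42 for mice 1, 2 and 3. The call lay close to the threshold and was lost with mouse as a block (limma adjusted p = 0.0787). It was also lost when any 1 of A2, A3, B1, B2, B3, C2, D1, D2 or D3 was left out (limma adjusted p of 0.0527 to 0.165), and was kept without A1, C1 or C3. C held 66.8, 60.4 and 55.8 RPKM and D held 65.9, 57.5 and 63.2 RPKM, values that overlap those of B. Ifi203 has the lowest GC content of the members, 38.4% against a member median of 47.4% and a median of 49.4% over all genes. Across genes, GC content was correlated with the difference of B from A within each mouse (r = 0.38, 0.31 and 0.37 over 9983 genes, which are not independent replicates). After each library's trend on GC content and length was removed, the Ifi203 difference was -0.09 and was not called (limma adjusted p = 0.619).

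Samd9l, which encodes a translation-restricting antiviral protein, was likewise lower in B than in A. It held 77.4, 91.8 and 94.2 RPKM in A and 65.4, 66.5 and 65.4 RPKM in B, with no overlap. C held 82.8, 67.9 and 60.5 RPKM and D held 77.3, 64.6 and 67.7 RPKM, so that C1 and D1 stood above their own populations. The difference of B from A was -0.41 ± 0.11 (SE), which was called with 6 libraries alone (limma adjusted p = 0.0307, where 3.79% of all genes were called) but not with 12 (adjusted p = 0.0630). Its GC content, 38.8%, was also low, and without the GC and length trend the difference was -0.18 (limma adjusted p = 0.407 with 12 libraries). Adar, an RNA-editing enzyme that marks the cell's own double-stranded RNA, went the other way, with 45.1, 48.7 and 48.4 RPKM in A and 53.5, 55.3 and 53.3 RPKM in B. That difference, 0.19 ± 0.04 (SE), missed the threshold (limma adjusted p = 0.0502). Adar has a GC content of 53.4%, and without the GC and length trend the difference was 0.09 with 6 libraries (limma adjusted p = 0.601).

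The fitted differences of the GTPases shared a sign within each comparison. Several of these proteins attack membranes around intracellular pathogens. The group holds Gbp2, Gbp3, Gbp7 and Gbp11 of the guanylate-binding family and Igtp, Irgm1, Irgm2, Iigp1 and Ifi47 of the immunity-related family. All 9 had fitted differences below 0 in B against A (-0.11 to -0.49, median -0.15), in D against C (down to -0.68, median -0.17) and in D against A (-0.04 to -0.68, median -0.19), and above 0 in C against B (0.08 to 0.49, median 0.11). These 4 comparisons share populations, none of the 9 was called in the 12-library fit, and the direction counts are given as a description. The shared sign was not seen in each mouse: in B against A, 9 of 9 were lower in B for mice 2 and 3 but 6 of 9 were higher in B for mouse 1, whose libraries are A1 and B1. It also rested on single libraries for Gbp3 in D against C and in D against A, and for Iigp1 in D against C and in C against B, whose signs turned when 1 C or D library was left out. All B libraries lay below all A libraries for 3 of 9, an order that 15.8% of all genes had. All D libraries lay below all C libraries for 5 of 9 (9.89% of all genes) and below all A libraries for 5 of 9 (11.7%). In C against B, 3 of 9 did not overlap and were higher in C (6.31% of all genes). GC content of the 9 ran from 39.3% (Iigp1) to 49.5% (Igtp), beside a median of 49.4% over all genes. Across genes, GC content was also correlated with the difference of D from A (r = 0.16, 0.28 and 0.35 for mice 1, 2 and 3). With the GC and length trend removed and 6 libraries alone, the B against A differences of the 9 ran from -0.06 (Gbp3) to -0.42 (Gbp11). Iigp1 was then at -0.11 and Gbp7 at -0.10. Reads may be shared between near-identical members of both families, and the labels do not say how such reads were assigned.

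Gbp2 and Gbp11 had the smallest p among the GTPases in D against C. Gbp2 held 38.6, 38.7 and 37.2 RPKM in C, with 32.4, 31.8 and 32.7 RPKM in D, so the C libraries lay above all D libraries with little spread in either. It was lower in D by 0.24 ± 0.05 on the log2 scale with 6 libraries alone (SE; limma adjusted p = 0.0295, where 4.8% of all genes were called and 1.45% were called lower), and the adjusted p was 0.127 with 12. In A it held 33.2, 41.3 and 38.9 RPKM and in B 37.4, 34.4 and 32.9 RPKM, which overlap through A1 and B1. Gbp11 held 6.51, 5.05 and 5.08 RPKM in C, with 3.68, 2.6 and 3.57 RPKM in D. It was lower in D by 0.68 ± 0.15 with 6 libraries (SE; limma adjusted p = 0.0366), with 0.106 for 12 libraries. In A it held 4.62, 5.39 and 6.72 RPKM and in B 4.25, 3.09 and 4.09 RPKM, again without overlap, but these values rest on only 59 to 160 reads a library. Both genes were lower in D in 3 of 3 mice.

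Igtp and Irgm1, whose windows hold response elements, showed smaller differences. Igtp held 55.7, 67.9 and 60.7 RPKM in A, 57.2, 55.1 and 53.5 in B, 65, 63.7 and 59.5 in C, with 54.1, 51.9 and 56.8 in D. Every C library lay above every B and D library. The difference of C from B was 0.18 ± 0.07 (SE; limma adjusted p = 0.294) and that of D from C was -0.21 (adjusted p = 0.143). Irgm1, a regulator of the other immunity-related GTPases, averaged 76.9 ± 8.92 RPKM in A, 67.6 ± 1.2 in B, 77.9 ± 3.63 in C, with 67.5 ± 4.15 in D (SD, n = 3). A1, at 66.8 RPKM, lay with the B libraries. For D against A and C against B, where no member was called, the smallest p belonged to Gbp11, with differences of -0.68 ± 0.16 (adjusted p = 0.151) and 0.49 ± 0.16 (limma adjusted p = 0.287). The second smallest belonged to Ifi203 in D against A (-0.25 ± 0.07, limma adjusted p = 0.154) and to Igtp in C against B.

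**Figure D4:**
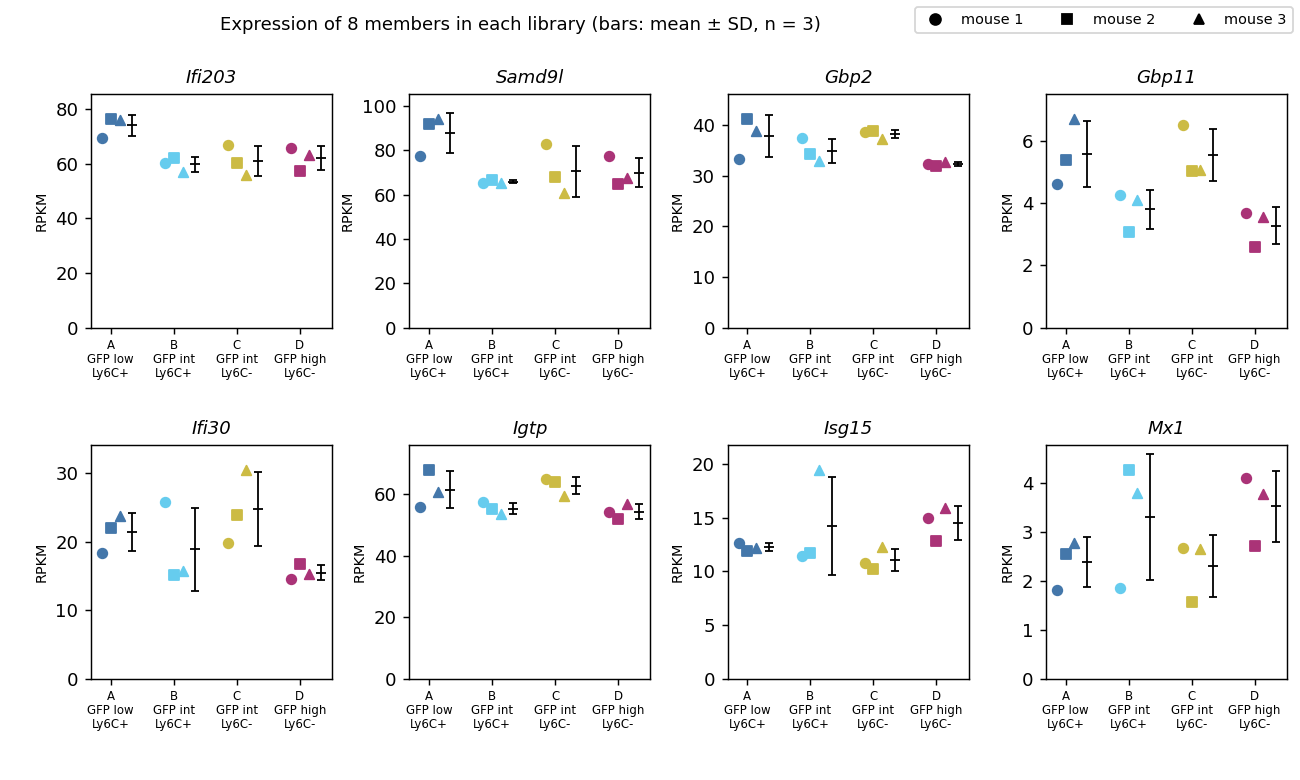
Expression in RPKM of 8 members in each library, by population, with symbols for mouse number and black bars for the mean ± SD of 3 libraries; each axis starts at 0. Ifi203 and Samd9l have their highest mean in A, Gbp2, Gbp11 and Igtp are lower in D than in C, and Isg15 and Mx1 spread widely within B.

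Ifi30, the lysosomal thiol reductase that prepares antigens for MHC class II, was the third member called in D against C with 6 libraries alone. It held 19.8, 23.9 and 30.5 RPKM in C and 14.5, 16.7 and 15.3 RPKM in D, and C3 was the highest of all 12 libraries. It was lower in D by 0.64 ± 0.14 on the log2 scale (SE; limma adjusted p = 0.0381), with an adjusted p of 0.124 for 12 libraries. A held 18.3, 22 and 23.8 RPKM, while B held 25.8 RPKM in B1 and 15.1 and 15.7 RPKM in B2 and B3. C3 is also the library high in Jchain and Cd74, and B1 had the highest B cell marker sum among A and B (27.0 RPKM, beside 28.2 RPKM in D2); the part of other cells in the Ifi30 values was not tested. When C3 alone was left out, the Ifi30 difference was -0.48 (limma adjusted p = 0.250 over 11 libraries), and the libraries C1 and C2 still lay above all 3 of D.

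Leaving out A1 and B1, whose Nr4a1 level goes against their gates, raised the counts for the members and for all genes. In B against A, 10 members were called and all were lower in B (10.9% of all genes were called, 4.26% lower). These were Gbp2, Gbp7, Gbp11, Igtp, Irgm1, Irgm2, Ifi203, Samd9l, Slfn1 and Ifi30, 6 of them GTPases, with differences from -0.24 for Igtp to -0.68 for Gbp11. In D against C, 4 members were called and all were lower (7.63% of all genes, 2.58% lower): Gbp2 (limma adjusted p = 0.00843), Ifi30 (0.0105), Gbp11 (0.0210) and Irgm1 (0.0441). In D against A, 9 members were called lower (8.84% of all genes, 2.76% lower), namely Gbp2, Gbp7, Gbp11, Igtp, Irgm1, Irgm2, Ifi203, Samd9l and Ifi30. The comparisons of A with B and with D share the A libraries. C against B gave 1 higher, Ifi30 (0.65), and 1 lower, Stat2 (-0.24), beside 7.74% of all genes. A1 and B1 are also the libraries of A and B low in haemoglobin transcripts, while C2 and D2 stayed in C and D. D against A and C against B thus compare populations with and without such a library, and its part was not tested. Stat2 was lower in that library in all 4 populations, and its C against B difference was -0.15 with 12 libraries. None of the Ifit, Mx1, Rsad2, Isg15 or Usp18 genes was among these calls. With 2 libraries in A and in B, these fits assume that A and B vary as C and D do.

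None of the 14 antiviral effectors was called with 12 libraries, and for several of them the libraries of a single population spanned most of the range. Ifit3, of a family that recognises foreign RNA, held 12.4, 14.5 and 17.9 RPKM in A, 14.3, 16.9 and 18.8 in B, 19.3, 10.9 and 12.8 in C, with 18.7, 11.9 and 16.6 in D. Ifit1, of the same family, held 12.9, 13.9 and 16.7 RPKM in A, 10.6, 13.4 and 14.6 in B, 16.9, 10.2 and 11.6 in C, with 17.1, 11.3 and 12.4 in D. Mx1, of the dynamin-like GTPase family, held 1.81, 2.55 and 2.78 RPKM in A, 1.84, 4.27 and 3.79 in B, 2.68, 1.57 and 2.65 in C, with 4.09, 2.7 and 3.76 in D. The populations overlapped in all 3 genes except for Mx1 in D against C. Mx1 was 0.53 ± 0.26 higher in D than in C on the log2 scale (SE; limma adjusted p = 0.310) and was not called.

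The low values of these genes fell in the same libraries. A1, B1, C2 and D2, 1 library of each population, are the 4 with low Hbb-bs and Hba-a2, and they are labelled as mouse 1 in A and B and as mouse 2 in C and D. Whether the mouse numbers of these 4 libraries are right was not tested. This pattern was noticed after the values were seen and is given as a description. In each of the 4 populations, 12 of the 43 members were lower in that library than in both others, against 1.28% of all genes tested. No member was higher in that library in all 4 populations, against 1.42% of all genes. The 12 members were Usp18, Ifit1, Ifit3, Mx1, Rsad2, Eif2ak2, Trim30a, Rtp4 and Xaf1 among the 14 antiviral effectors, Ifih1 and Dhx58 among the 5 sensors, and Stat2 among the 5 transcription factors. None of the 9 GTPases, the 4 PARP-group members or the 6 remaining members was among them. A further 11 members were lower in 3 of the 4 populations, against 8.87% of all genes.

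The sizes were modest for most of the 12 members and larger for the faint ones. Usp18, the protease that removes ISG15 and damps the type I receptor, held 21.7, 22.2, 20.9 and 18.9 RPKM in A1, B1, C2 and D2, and 23.4 to 25.3 RPKM in the other 8 libraries. Xaf1, a proapoptotic interferon target, held 9.94 to 11.8 RPKM in these 4 libraries and 12.2 to 13.7 RPKM in the other 8. Eif2ak2, the kinase PKR, held 9.26 to 10.7 RPKM against 10.9 RPKM or more. For these 3 genes the 4 libraries lay below all others whatever the population. Mean differences on the log2 scale were -0.62 for Mx1, -0.44 for Rsad2, -0.43 for Ifit3, -0.35 for Ifit1, -0.27 for Rtp4, -0.26 for the RNA sensor gene Dhx58, -0.21 for the RNA sensor gene Ifih1 and -0.14 for Stat2. The median over the antiviral effectors was -0.28, -0.20, -0.21 and -0.25 for A1, B1, C2 and D2, and over all genes tested it was 0.01, -0.01, 0.0031 and 0.0066. The median over the GTPases took both signs, with -0.17, 0.15, -0.0023 and -0.10.

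**Figure D5:**
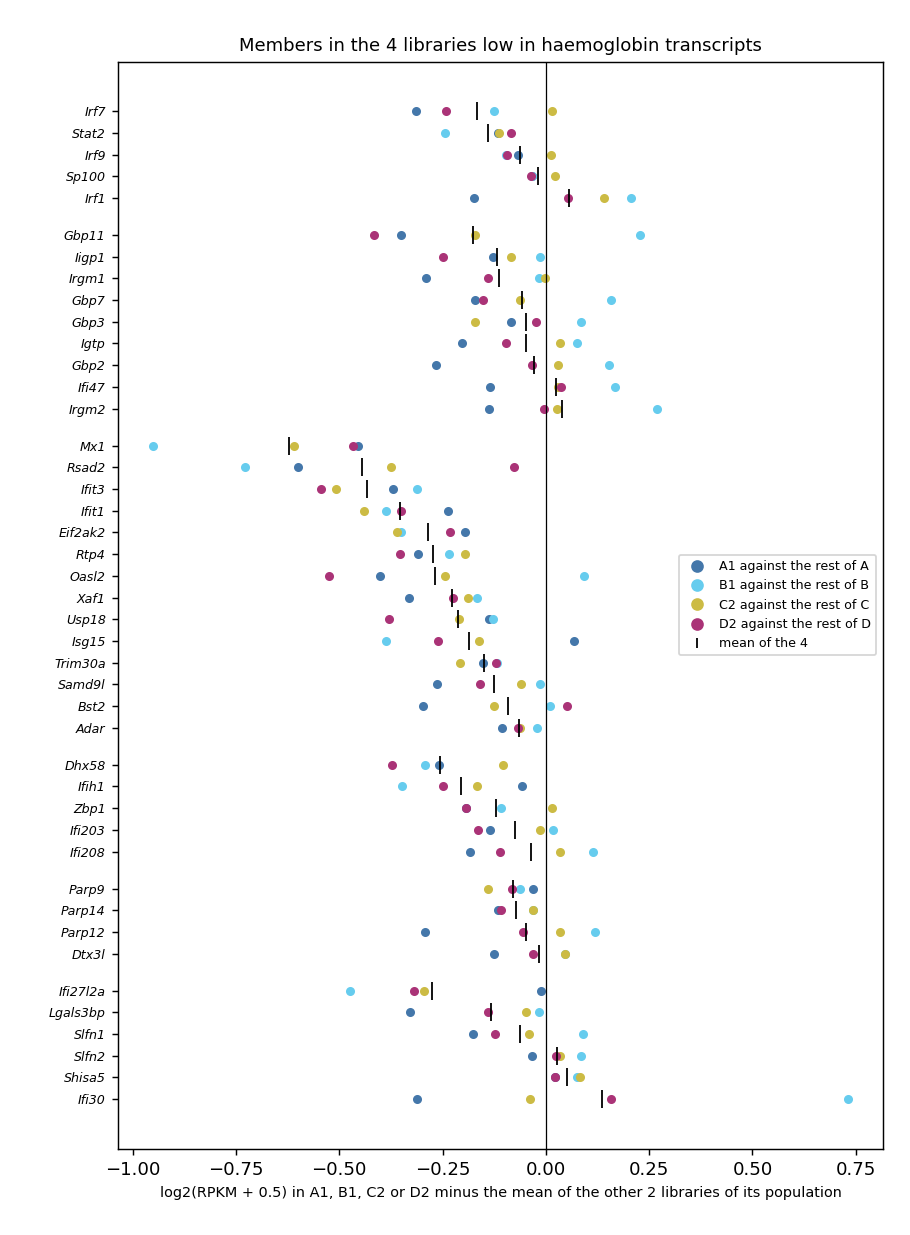
Level of each member in the library of each population that is low in haemoglobin transcripts (A1, B1, C2 or D2) minus the mean of the other 2 libraries of that population, on the log2(RPKM + 0.5) scale, grouped by role; the black tick is the mean of the 4 values. All 4 points lie left of 0 for Mx1, Rsad2, Ifit3, Ifit1, Eif2ak2, Rtp4, Xaf1, Usp18 and Trim30a, while Irf1, Gbp2 and Igtp have points on both sides.

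Genes outside the members were split in the same way by a list of other interferon-stimulated genes. Of the 78 on that list that were tested and are not members, 7 were lower in the haemoglobin-low library of all 4 populations, namely Oas3, Nlrc5, Trim30d, Ddx60, Phf11d, Ifi213 and Mndal, and 20 were lower in 3, beside the 1.28% and 8.87% of all genes given above. Of 28 upstream and regulatory genes, 2 were lower in all 4, Tlr7 and Trim25, and 1 was higher in all 4. A1 and B1 belong to these 4 libraries and are also those whose Nr4a1 goes against the gate. When a term for these 4 libraries was added to the fit, 0 members were called in any comparison. Of all genes, 0.529% were called in B against A and 0.00998% in each of the others. With 1 such library in each population, the term cannot move a difference between populations, only its standard error and p. The Ifi203 difference of B from A thus stayed at -0.31 by construction (limma adjusted p = 0.0580, unadjusted p of 0.000931 with the term and 0.00104 without). The part of red cell RNA in this pattern was not tested.

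Isg15 and Ifi27l2a did not follow it fully. Isg15, the ubiquitin-like modifier, held 12.6, 11.9 and 12.2 RPKM in A, 11.4, 11.7 and 19.5 in B, 10.8, 10.2 and 12.2 in C, with 15, 12.8 and 15.9 in D. B3 stood highest, and all 3 D libraries lay above all 3 C libraries. The difference of D from C was 0.38 ± 0.16 (SE; limma adjusted p = 0.245 with 12 libraries and 0.0764 with 6) and was not called. With the GC and length trend removed and 6 libraries alone it was 0.40 (limma adjusted p = 0.0460, where 5.48% of all genes were called). Ifi27l2a, a small interferon-induced membrane protein, averaged 59.9 ± 1.61 RPKM in A, 68.3 ± 12.3 in B, 59.5 ± 7.56 in C, with 74.7 ± 9.2 in D (SD, n = 3). Its difference of D from C was 0.33 ± 0.13 (SE; limma adjusted p = 0.211).

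None of the 5 transcription factors was called in any comparison with 12 libraries. Irf1, a direct target of interferon gamma signalling, held 96.3, 107 and 110 RPKM in A, 112, 95.8 and 98.7 in B, 107, 117 and 106 in C, with 92.9, 102 and 103 in D. Every C library lay above every D library. Irf7, the amplifier of type I interferon production, ran from 42.1 RPKM in A1 to 58.4 RPKM in B3. Irf9, the DNA-binding subunit of the type I complex, ran from 54.2 to 65.5 RPKM. Stat2 averaged 25.9 ± 1.25 RPKM in A, 29 ± 2.87 in B, 26 ± 1.7 in C, with 27.6 ± 0.953 in D (SD, n = 3), and the B against A difference of 0.16 ± 0.07 was not called (limma adjusted p = 0.213).

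Of 31 upstream and regulatory genes on a list of receptors, kinases, STATs, IRFs and inhibitors, 28 were tested and 0 were called in any comparison with 12 libraries. At an unadjusted p under 0.05, 6 of the 28 passed in B against A and 6 in D against C, beside 23.1% and 18.1% of all genes. The smallest adjusted p among them was 0.0548, for the kinase gene Ikbke in B against A. With the 6 libraries of D against C alone, where 4.8% of all genes were called, 2 of the 28 were called. Jak2, the kinase of the interferon gamma receptor, was higher in D (0.53, limma adjusted p = 0.00354, 34.9 RPKM on average in C and 50.4 in D), and Socs3, an inhibitor of cytokine receptors, was lower (-0.43, limma adjusted p = 0.00449, 101 RPKM and 74.3 RPKM). Among the 78 other interferon-stimulated genes, 0 were called with 12 libraries. With the 6 libraries of D against C, 2 were higher and 4 lower, beside the same 4.8% of all genes called and 1.45% called lower: Ms4a4c (0.94) and Parp11 (0.29) were higher, and Ly6a (-0.58), Oas2 (-0.48), Tgtp1 (-0.38) and Psmb9 (-0.25) were lower.

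Some sums of cell type marker genes differed between the populations. Regulatory T cell markers summed over 5 genes to 24.9 to 28.5 RPKM in C, with 54.2 to 63.0 RPKM in D, and to 63.2 RPKM in A1 and 28.8 RPKM in B1 against 25.5 to 27.1 RPKM in A2 and A3 and 52.5 to 59.4 RPKM in B2 and B3. Of 8 CD8 and NK cell markers 2 were listed, and their sum was 29.7 to 31.5 RPKM in A, 17.6 to 24.6 in B, 24.95 to 30.8 in C, with 19.9 to 21.0 in D. A and C thus lay above B and D, the direction of the fitted differences of all 9 GTPases. In A1 the sum was 29.7 RPKM, and 3 of 9 GTPases lay above their own mean there. For mouse 1, 6 of 9 GTPases were higher in B than in A. Ly6c1 transcripts were also higher in A and C than in B and D. The 3 listed myeloid markers summed to 108 to 131 RPKM outside C3 and to 171 RPKM in C3, and the 2 listed plasma cell markers to 15.9 to 22.1 RPKM outside C3 and to 824 RPKM in C3. Of the plasmacytoid dendritic cell markers other than Bst2, 3 of 4 were listed, and they summed to 2.3 to 6.1 RPKM outside C3 and 9.4 RPKM in C3. No listed marker was at 0 in any library. Whether these sums come from other cells, and the part of such cells in the differences of the members, were not tested.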

How the data were processed

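Polyadenylated RNA of sorted cells was amplified with the SMART-seq v4 kit and made into libraries with Nextera XT, per the labels' protocols. The submitters' processing notes name STAR and the builds mm9 and mm10, without saying which build gave the table; the counting tool, the annotation and the use of strand are unknown here, so overlapping antisense genes cannot be told apart. The authors deposited 1 table of RPKM values for 12 libraries, per the file headers. Its values were whole multiples of 1 read in 100.0% of the low values examined (within 0.1 read), which gave each library's depth; all 43 members had reads in every library.

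limma 3.58.1 in R 4.3.3 was fitted with an intensity trend to log2(RPKM + 0.5) over all 12 libraries, without a mouse term, and genes averaging under 0.5 RPKM were dropped. Benjamini-Hochberg adjustment ran over the 10021 genes left. Fold changes of faint genes are understated on this scale. Other scripts used Python 3.11.15. A simulated table of 10021 genes was also fitted: for D against A, 72 of 100 genes changed by 0.5 and 94 of 100 changed by 1 on the log2 scale were recovered, with 10 false calls. Its noise was independent for each gene and library, without the library patterns described above. Smaller changes, the size of most member differences, were not simulated, so it does not give the power for these members.

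The members and lists were chosen with earlier results of these data known. Genes given in full were those called in a comparison with 12 or 6 libraries, otherwise the 2 smallest p, plus the most abundant member of each role and up to 4 genes by smallest p of each list; members given with the libraries low in haemoglobin, and Irf1, Irf7, Irf9, Stat2, Ifit1, Ifit3, Isg15, Mx1 and Ifi27l2a, were added after their values were seen. The labels assign 1 mouse number to 4 libraries. Deviations of same-numbered libraries from their population means correlated by -0.07 on average (-0.61 to 0.38 over 18 pairs), against 0.03 for different numbers. GC content and length came from GENCODE M21 for 9983 of the genes tested.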

Additional observations from a re-analysis of the deposited data

How the results depend on the processing

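Ifi203 and Samd9l in B against A, and Gbp2, Gbp11 and Ifi30 in D against C, kept their sign under the alternatives run. Over all members and the 4 comparisons, 178 of 4284 values took the opposite sign, in 28 of 43 members, none with a 12-library difference over 0.1716 in size. Many of the 4284 values could not change sign by construction, so this share understates how often signs turn. The replicate block, the erythroid term, the 6 libraries alone, the filters and leaving out a library outside the comparison do not move a difference. Leaving out C3 and removing the GC trend were each counted more than once. In B against A, 1 member was called, and 2 were with a pseudocount of 1, with no filter, with a filter of 5 RPKM or with 6 libraries alone, 3 without C3 and 10 without A1 and B1. There were 0 with quantile normalization, the replicate block, the erythroid term, and the GC and length trend removed over 12 or 6 libraries. In D against C, with 0 called, 6 libraries alone gave 3, leaving out A1 and B1 gave 4, and removing the GC trend with 6 libraries gave 5. Without A1 and B1, D against A gave 9, C against B 2 and the F test 6. Leaving out 1 library at a time gave 0 to 3 in B against A and D against A, 0 to 2 in D against C, and 0 to 1 in C against B, the step difference and the F test. All genes called moved with them, over 0 to 461 in B against A, 1 to 362 in D against A, 1 to 398 in D against C, 0 to 386 in C against B, 0 to 261 in the step difference and 1 to 401 in the F test. Leaving out A1, C1 or C3 gave the 3 in B against A, A1 the 3 in D against A, A1 (Gbp2, Gbp11) or B1 (Gbp11, Ifi30) the 2 in D against C, B1 the 1 in C against B (Ifi30), C1 the 1 in the step difference (Ifi203) and A1 (Irgm1) or B1 (Ifi30) the 1 in the F test. In these fits the difference of Ifi203 in B against A ranged from -0.35 to -0.27, Gbp2 in D against C from -0.26 to -0.23, Gbp11 from -0.76 to -0.54 and Ifi30 from -0.79 to -0.48.

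The mouse numbers pair libraries of 1 animal by label, but the best-correlated library from another population carried the same number for only 2 of 12. The replicate block left 0 members called in B against A (Ifi203, limma adjusted p = 0.0787) and changed no other member call. The GC and erythroid alternatives were chosen after seeing the data. Depth limits the faint members, with 40 reads at the lowest.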
